A study of Mus musculus with 18 samples.

Results

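Short-term haematopoietic stem cells (ST-HSC) given doxycycline to switch on reprogramming factors were compared with long-term haematopoietic stem cells (LT-HSC) given the same treatment, at day 2 and at day 4 of culture. The comparison rests on 4 of the 18 mouse RNA-seq libraries of the study: ST-HSC 2D, ST-HSC 4D, LT-HSC 2D and LT-HSC 4D, taken by their titles. A gene was counted as agreeing at both days when log2(FPKM + 1) differed by at least 1 in the same direction at day 2 and at day 4. The deposited values were taken as FPKM from their range and the Cufflinks note, since no header names a unit. FPKM is a fragment count scaled to transcript length and to the fragments mapped in the library.

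All cells came from C57BL/6 mice described as entirely derived from iPS cells, whose genome carries doxycycline-controlled copies of the factors Oct4, Sox2, Klf4 and c-Myc. The promoter of that insertion, the age of the animals and the number of donors were not stated in the labels. D libraries were cultured with doxycycline for 2 or 4 days. N libraries (ST-HSC, LT-HSC and myeloid progenitors, MP) were cultured for the same times without it by the series design, although their doxycycline field reads yes, so the titles were followed. Uncultured cells of each type and 3 fibroblast libraries complete the series. Each blood library was amplified by poly(T) priming and PCR from 25 hand-picked cells, and every condition had 1 library. Days therefore took the place of replicates. The p-values rest on how much the differences between cell types varied from day 2 to day 4, within D and within N and with MP included. They do not measure how much animals or cultures varied.

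LT-HSC sit at the top of the blood hierarchy and rebuild all blood lineages for life, whereas ST-HSC are their descendants and sustain blood formation for a limited time. Both belong to the CD45+ leukocyte lineage, in which the transcription factor PU.1 and its partners maintain a shared set of cytoskeletal, adhesion and signalling genes. Reprogramming towards pluripotency requires that such a lineage programme be silenced, and the first days of factor expression are the time when somatic genes begin to be lost.

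Total FPKM was 732880 and 718232 in ST-HSC 2D and 4D, against 767866 and 732389 in LT-HSC 2D and 4D, with 11257 and 11268 genes at FPKM 1 or more against 11365 and 10758. Read depth is unknown, and a listed 0 may stand for a failed estimate or for no reads. The library LT-HSC 2D stood apart in immunoglobulin transcripts. Igkc, the kappa light chain constant region, was at 16194 FPKM there and listed at 0 in ST-HSC 2D, ST-HSC 4D and LT-HSC 4D, and Ighm, the mu heavy chain, was at 109 and 37.4 FPKM in ST-HSC 2D and 4D, against 1853 and 0 in LT-HSC 2D and 4D. Together these genes took 2.35% of the total FPKM of LT-HSC 2D and at most 0.0213% of any other cultured or uncultured ST-HSC or LT-HSC library. The B cell genes Cd79a and Ms4a1 were listed at 0 in all 4 libraries, and Cd79b was at 4.76 FPKM in LT-HSC 2D alone. Sdc1, a gene also known from plasma cells, was at 6.83 and 8.16 FPKM in ST-HSC 2D and 4D, against 17.4 and 29.8 in LT-HSC 2D and 4D. Prdm1, another such gene, was at 0.758 FPKM or below in all 4 libraries. These genes were chosen after their values were seen, and their part in other results was not tested. Neither Igkc nor Ighm agreed at both days.

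No reprogramming factor was called between the cell types. Sox2, which acts in pluripotent and neural progenitor cells, was at 29.1 and 39.1 FPKM in ST-HSC 2D and 4D, against 61.3 and 48.9 in LT-HSC 2D and 4D. Myc, a driver of growth, was at 47.6 and 149 FPKM in ST-HSC, against 67.4 and 189 in LT-HSC. Klf4, a regulator of epithelial and myeloid genes, was at 0.704 and 3.20 FPKM in ST-HSC, against 11.2 and 8.16 in LT-HSC. Pou5f1, the gene of Oct4, was at 2.07 and 0 FPKM in ST-HSC, against 2.04 and 0 in LT-HSC. The value was lower in ST-HSC at both days for Sox2, Myc and Klf4, but none of these differences passed limma (adjusted p = 0.659 for Sox2, 0.744 for Myc and 0.322 for Klf4), and Pou5f1 was below the level at which genes were tested. FPKM does not separate the inserted from the native copies. Summed over the 4 genes, FPKM was 79.5 and 190.8 in ST-HSC 2D and 4D, against 286.4 and 205.8 in ST-HSC 2N and 4N. In LT-HSC the sum was 141.8 and 246.5 in 2D and 4D, against 189.2 and 290.5 in 2N and 4N. The sums were thus not higher in D, while fewer of these genes were listed at 0 in D than in N at each day. Whether each factor was switched on was not tested.

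Surface markers were used to check the cell type labels. Slamf1 and Vwf, which are used to recognise LT-HSC, were listed at 0 in all 4 D libraries. Kit, the stem cell factor receptor, was at 28.9 and 23.5 FPKM in ST-HSC, against 5.87 and 4.43 in LT-HSC, and Ly6a, the Sca-1 antigen, was at 169 and 148 FPKM in ST-HSC, against 259 and 149 in LT-HSC. Kit was higher in both ST-HSC libraries without passing limma (adjusted p = 0.083), and Ly6a overlapped between the cell types. The labels could therefore not be checked by these markers after induction. In uncultured cells, Flt3 and Cd34, which mark ST-HSC and later progenitors, were at 106 and 421 FPKM in ST-HSC, against 2.84 and 16.1 in LT-HSC, and Slamf1 was at 0 in ST-HSC and 34.6 in LT-HSC. The uncultured LT-HSC library also held 13554 FPKM of the neutrophil protease gene Elane, against 44.7 in uncultured ST-HSC, and it was used here only for description.

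The question was which genes separated ST-HSC from LT-HSC under doxycycline. Most genes that passed the test were higher in ST-HSC. Of 12254 genes tested (mean FPKM of at least 1 over the 12 cultured blood libraries), 798 (6.51%) were higher in ST-HSC at both days and 433 (3.53%) were lower. Another 424 (3.46%) reached the same size at both days with opposite signs. With a difference of at least 2, the counts were 269 higher (2.2%), 77 lower (0.628%) and 70 with opposite signs (0.571%). Across the 12254 genes, which are not independent replicates, the ST-HSC minus LT-HSC difference at day 2 had a Pearson correlation of 0.325 with that at day 4, and these differences share no library.

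**Figure D1:**
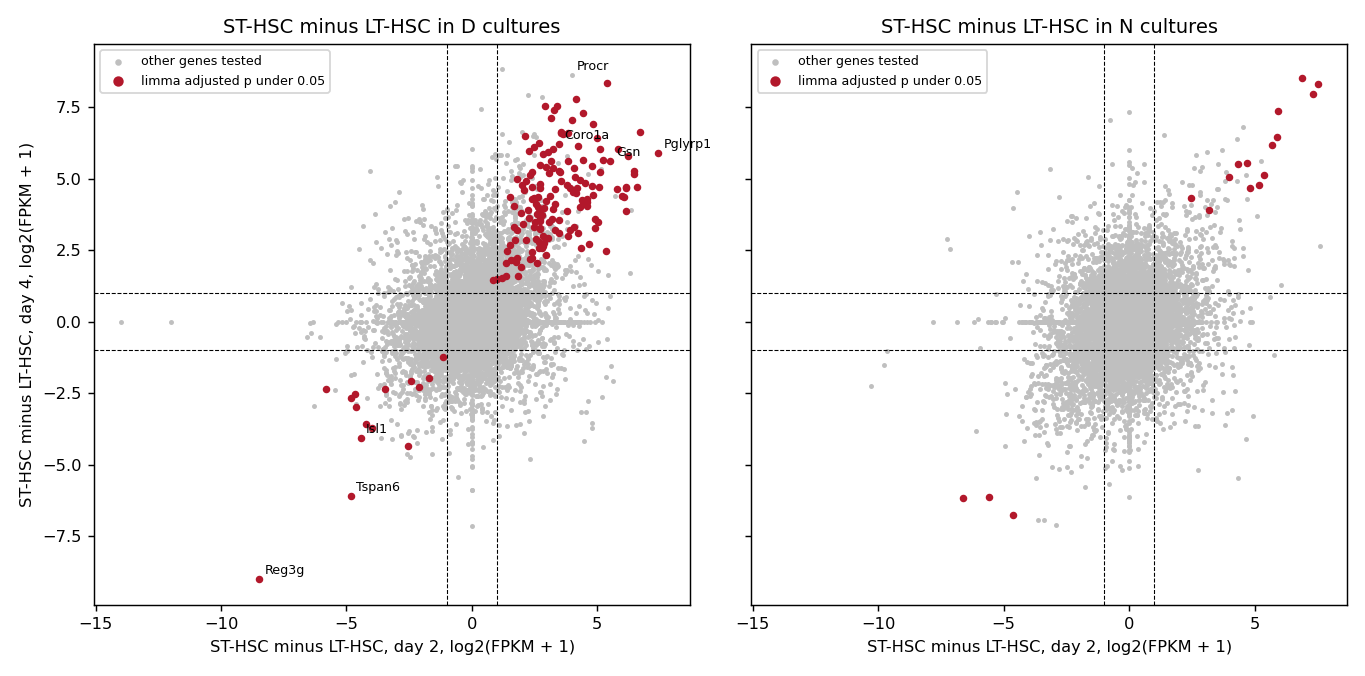
Each point is a gene tested, plotted by its ST-HSC minus LT-HSC difference in log2(FPKM + 1) at day 2 (x axis) and day 4 (y axis), in D cultures on the left and N cultures on the right. Red points passed limma, and dashed lines mark a difference of 1 in either direction. In D the 152 red points higher in ST-HSC fill the upper right corner and the 15 lower ones are scattered in the lower left, with Reg3g farthest out, while in N there are 14 and 3.

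The differences were tested with limma on log2(FPKM + 1) in 12 cultured blood libraries, with the ST-HSC minus LT-HSC term estimated from the 4 D libraries and the spread from all 12. At an adjusted p of 0.05, 167 genes (1.36%) passed, 152 higher in ST-HSC (1.24%) and 15 lower (0.122%), and 1680 genes (13.7%) had an unadjusted p under 0.05. The count rests on the spread borrowed from the other libraries: it was 8 when only the 4 compared libraries were fitted, 54 without the MP libraries, 0 for day 2 alone and 9 for day 4 alone. It was 20 without ST-HSC 4D and 24 without LT-HSC 4D. Over the 12 fits that each left out 1 library, 10 of the 152 and 1 of the 15 were called every time. The 10 were 1190002H23Rik, Lsp1, Ncf1, Ncf4, Neurl3, Pglyrp1, Prtn3, Rasgrp2, Susd3 and Traf3ip3, and the 1 lower gene was Reg3g.

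The 152 genes were chosen by their D values, so their D levels are given as a description. Their median log2(FPKM + 1) was 5.84 and 5.14 in ST-HSC 2D and 4D, against 5.69 and 5.65 in ST-HSC 2N and 4N. In LT-HSC the median was 2.09 and 0 in 2D and 4D, against 5.92 and 5.72 in 2N and 4N. Of the 152, 39 were listed at 0 in both LT-HSC D libraries and 118 stood at FPKM 10 or more in all 4 ST-HSC and LT-HSC N libraries. No share over all genes is given for the 39 and the 118. In MP, 102 of the 152 were lower in D than in N at both days, as were 1137 of the 12254 genes tested. In these pooled cells, fewer cells that keep a transcript and less of it in each cell cannot be told apart.

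**Figure D2:**
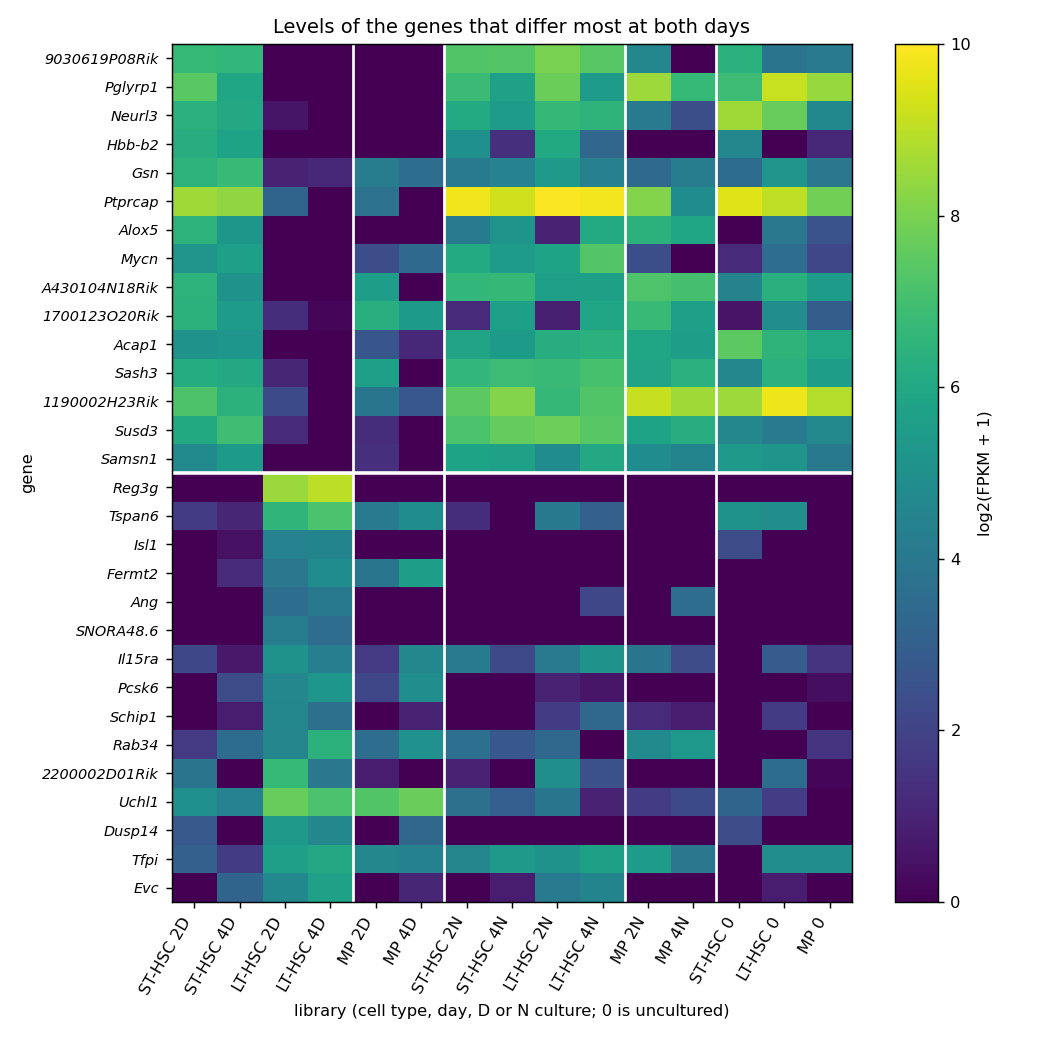
Heat map of log2(FPKM + 1), dark at 0 and bright at 10, for 15 genes higher and 15 genes lower in ST-HSC at both days (rows), in each blood library (columns; D, then N, then uncultured). By their choice the upper genes are brighter in ST-HSC 2D and 4D than in LT-HSC 2D and 4D and the lower genes darker. Reg3g is seen in LT-HSC 2D and 4D alone, whereas Fermt2 is brightest in MP 4D.

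Several of the called genes encode leukocyte proteins of the cytoskeleton and of receptor signalling. Ptprcap (ENSMUSG00000045826), a transmembrane partner of the CD45 phosphatase, was at 383 and 327 FPKM in ST-HSC 2D and 4D, against 8.29 and 0 in LT-HSC 2D and 4D. Both ST-HSC libraries lay far above both LT-HSC libraries, and the fitted difference was 6.86 ± 0.882 log2 units (SE; limma adjusted p = 0.00994). Coro1a (ENSMUSG00000030707), an actin-binding protein of leukocytes, was at 2254 and 1907 FPKM in ST-HSC, against 201.5 and 24.9 in LT-HSC. The ST-HSC values equalled or approached the 2250 and 3296 FPKM of ST-HSC 2N and 4N, and the fitted D difference was 4.84 ± 0.718 (adjusted p = 0.0156). Lcp1, the actin bundler L-plastin, was at 97.1 and 94.3 FPKM in ST-HSC, against 6.86 and 0 in LT-HSC (adjusted p = 0.012). Lsp1, an actin-binding protein of lymphocytes and neutrophils, was at 65.3 and 19.8 FPKM in ST-HSC and listed at 0 in both LT-HSC libraries (adjusted p = 0.00435).

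Gsn (ENSMUSG00000026879), the actin-severing protein gelsolin, was at 87.6 and 108 FPKM in ST-HSC, against 0.932 and 1.23 in LT-HSC. It was nearly level between the days within each cell type, and the groups did not overlap (5.57 ± 0.532, limma adjusted p = 0.00288). It stood higher in induced ST-HSC than at the 17.1 and 20.9 FPKM of ST-HSC 2N and 4N. Fermt3, the kindlin that activates integrins in blood cells, was at 126 and 85.0 FPKM in ST-HSC, against 28.7 and 2.57 in LT-HSC (adjusted p = 0.0178). Tmsb4x, thymosin beta 4, the main actin-sequestering peptide, was at 4082 and 2130 FPKM in ST-HSC, against 2252 and 771 in LT-HSC. Its ranges overlapped across days, since ST-HSC 4D lay below LT-HSC 2D, and its difference of 1.16 ± 0.199 was the smallest that passed among the 152 (adjusted p = 0.0303).

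Signalling proteins of haematopoietic cells showed the same order. Rac2, a GTPase restricted to blood cells, was at 184 and 184 FPKM in ST-HSC, against 23.6 and 0 in LT-HSC (limma adjusted p = 0.0318). Vav1, a nucleotide exchange factor for Rac, was at 69.6 and 40.1 FPKM in ST-HSC, against 6.53 and 0 in LT-HSC (adjusted p = 0.0178). Lcp2, the adaptor SLP-76, was at 21.8 and 16.8 FPKM in ST-HSC and listed at 0 in both LT-HSC libraries (adjusted p = 0.00827). Rac2, Vav1 and Lcp2 thus had no LT-HSC value within the range of ST-HSC.

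Further members were Sash3, an adaptor of lymphocyte signalling, at 71.3 and 64.7 FPKM in ST-HSC against 1.12 and 0 in LT-HSC, and Samsn1, a related adaptor, at 26.6 and 43.0 FPKM against 0 and 0. Rasgrp2, an exchange factor that activates the GTPase Rap1 in platelets and leukocytes, was at 112 and 32.1 FPKM in ST-HSC, against 5.58 and 0 in LT-HSC (limma adjusted p = 0.0021). Ptprc (ENSMUSG00000026395), CD45 itself, was at 55.9 and 22.0 FPKM in ST-HSC, against 2.47 and 0 in LT-HSC (4.28 ± 0.52, adjusted p = 0.00815). The ST-HSC values of Ptprc were of the size found in N culture, 28.5 and 30.9 FPKM in ST-HSC 2N and 4N.

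A list of 33 pan-leukocyte genes, written with earlier results of these data known, held 32 tested members. In D, 20 of the 32 were higher in ST-HSC at both days and 0 were lower, against 6.51% and 3.53% of all genes. Of the 32, 14 passed limma as higher, against 1.24% of all genes. The median difference was 1.88 at day 2 and 3.55 at day 4, where all genes had a median of 0. In N culture 3 of the 32 were higher and 0 lower, against 3.54% and 4.86% of all genes, and the medians were -0.43 and 0.14. When the D and N differences were compared by limma, 1 of the 32 (Lsp1) passed as larger in D, against 0.384% of all genes. The summed FPKM of the 33 genes was 4384 and 3420 in ST-HSC 2D and 4D, against 859 and 180 in LT-HSC 2D and 4D, and 5297 and 6588 in ST-HSC 2N and 4N, against 7619 and 6371 in LT-HSC 2N and 4N. At day 4, 1 of the 33 was listed at 0 in ST-HSC and 19 in LT-HSC.

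**Figure D3:**
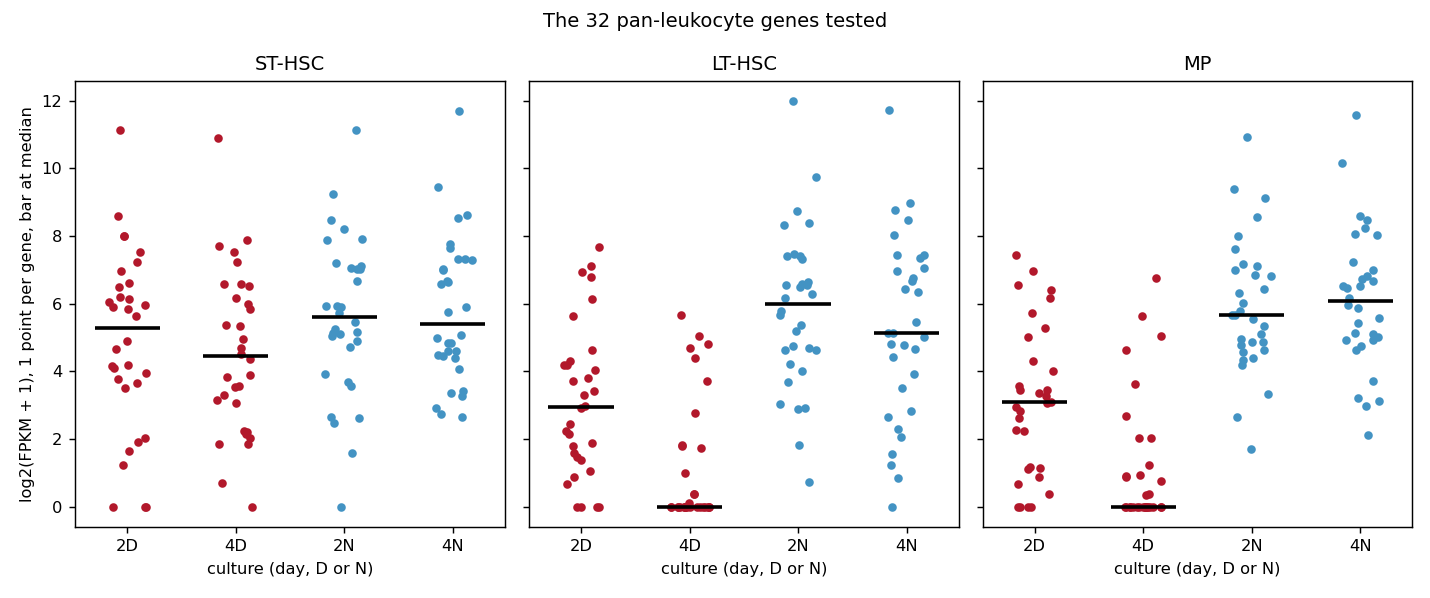
The 32 tested pan-leukocyte genes as points, with log2(FPKM + 1) on the y axis and a bar at the median, in D (red) and N (blue) libraries of ST-HSC, LT-HSC and MP. The points of ST-HSC 2D and 4D spread over the range of the N libraries, whereas those of LT-HSC 2D lie lower and the medians of LT-HSC 4D and MP 4D are at 0.

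The list did not move as a block. Cd37, a leukocyte tetraspanin, was at 0 and 3.59 FPKM in ST-HSC 2D and 4D, against 0.82 and 0 in LT-HSC, although ST-HSC 2N and 4N held 146 and 158 FPKM. Ptpn7, a phosphatase of MAP kinases, was at 2.75 and 7.40 FPKM in ST-HSC, against 1.58 and 0 in LT-HSC, with 137 and 128 FPKM in ST-HSC 2N and 4N. Arhgap15, a Rac GTPase-activating protein, was at 0 and 2.62 FPKM in ST-HSC and listed at 0 in LT-HSC. These genes were low in induced cells of both types. Cd47, the surface ligand that restrains phagocytosis, was at 383 and 235 FPKM in ST-HSC, against 109 and 49.7 in LT-HSC, and passed limma with a smaller difference (2.01 ± 0.279, adjusted p = 0.013). Its symbol covers 2 gene IDs whose values were summed.

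Promoter stretches are shown for 4 of the called genes higher in ST-HSC. Motifs bound by ETS-family factors such as PU.1 share a GGAA core. The choice of the 4 did not cover every chromosome. They had the largest smaller-of-both-days difference among the covered called genes that hold AGGAAGT in the 250 bases before the start. Its presence in each stretch was therefore fixed by the choice, and binding was not tested. The windows ran from 250 bases before to 50 after each start in RefSeq on GRCm38.p6, which is a later build than that of the expression files, and only bases before the start are printed. Each line runs 5′ to 3′ on the strand of the gene, and capitals mark AGGAAGT or its reverse complement. The stretches lie at chr2:35266683-35266743 on the plus strand for Gsn, chrX:48146364-48146435 on the plus strand for Sash3, chr14:79301834-79301885 on the minus strand for 1190002H23Rik (Rgcc in RefSeq) and chr16:75909267-75909336 on the minus strand for Samsn1.
Gsn: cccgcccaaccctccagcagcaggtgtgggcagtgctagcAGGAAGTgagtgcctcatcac
Sash3: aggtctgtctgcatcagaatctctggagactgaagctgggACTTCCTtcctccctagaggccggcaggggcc
1190002H23Rik: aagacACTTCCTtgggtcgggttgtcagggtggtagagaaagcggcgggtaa
Samsn1: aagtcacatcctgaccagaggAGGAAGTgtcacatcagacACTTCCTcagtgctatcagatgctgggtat

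AGGAAGT was found on either strand in 42 of the 166 windows of called genes higher in ST-HSC (25.3%), which belong to 109 of the 152 genes. It was in 14 of 36 windows of the pan-leukocyte list (38.9%) and in 1 of 14 windows of the genes lower in ST-HSC (7.1%). The overlapping GAGGAAG was in 21.1% of the windows of genes higher in ST-HSC and in 4 of the 14 of genes lower (28.6%), with 13.6% in all genes tested. In all genes tested AGGAAGT was in 9.1% of 11461 windows, which belong to 8950 genes, and in the whole table in 9.4% of 32851. A gene can have several windows, so these are shares of windows and not of genes. The motif was 1 of 12 searched with the results known. The other 11 were the ETS-type GAGGAAG, which overlaps it, and the ETS-type CCGGAAG, the RUNX-type TGTGGT and its longer form TGTGGTT, the GATA core GATAAG, the TEAD-type GGAATG, the C/EBP-type TTGCAACA, the STAT-type TTCCNGGAA, the E-box CACGTG, the octamer-type TTTGCAT and an interferon-response element. GATAAG, the core bound by GATA factors, was in 7.8% of the windows of genes higher in ST-HSC and 5% of those of all genes tested, and CCGGAAG, another ETS-type motif, was in 8.4% against 18.2%. The interferon-response element was in 6.6% against 2.9%. TGTGGT was in 18.7% against 12.8%, TGTGGTT in 5.4% against 3.8% and TTTGCAT in 6.0% against 3.4%. GGAATG was in 11.4% against 11.8%, CACGTG in 4.8% against 10.1%, TTCCNGGAA in 0.0% against 1.2% and TTGCAACA in 0.6% against 0.5%. A match is a description of the sequence and does not show that a factor binds there.

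Transcription factors of blood were among the 152. Sfpi1 (ENSMUSG00000002111), the gene of PU.1, was at 183 and 95.8 FPKM in ST-HSC 2D and 4D, against 11.9 and 0 in LT-HSC 2D and 4D. Both ST-HSC libraries lay above both LT-HSC libraries (5.21 ± 0.921, limma adjusted p = 0.0318), while MP 2D held 75.7 FPKM and MP 4D 0. Nfe2, a factor of erythroid and megakaryocyte cells, was at 156 and 185 FPKM in ST-HSC, against 13.8 and 0 in LT-HSC (adjusted p = 0.0152). Mycn, a relative of Myc that acts in stem cell growth, was at 36.4 and 49.3 FPKM in ST-HSC and listed at 0 in both LT-HSC libraries (adjusted p = 0.015).

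Hhex, a homeobox factor of early blood and endoderm, was at 351 and 77.4 FPKM in ST-HSC, against 72.1 and 5.27 in LT-HSC (2.96 ± 0.422, limma adjusted p = 0.0141). Ikzf1, the lymphoid factor Ikaros, was at 30.2 and 22.6 FPKM in ST-HSC, against 6.06 and 2.26 in LT-HSC (adjusted p = 0.0329). Lyl1, a bHLH factor of the stem cell heptad, was at 28.8 and 31.0 FPKM in ST-HSC, against 7.49 and 0 in LT-HSC (adjusted p = 0.0462). Of 24 tested heptad and fate factors, 8 were higher in ST-HSC at both days and 0 lower, beside 6.51% and 3.53% of all genes. Of the 24, 5 passed limma as higher, beside 1.24% of all genes. Other members did not separate the cell types. Tal1, the partner of Lyl1 and Lmo2, was at 24 and 18.7 FPKM in ST-HSC, against 35.4 and 20.6 in LT-HSC, and Gata2 was at 48.1 and 34.7 FPKM in ST-HSC, against 106 and 25.0 in LT-HSC.

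Some genes of myeloid effector functions were also present in induced ST-HSC. Prtn3 (ENSMUSG00000057729), the granule serine protease proteinase 3, was at 70.5 and 45.9 FPKM in ST-HSC 2D and 4D, against 2.42 and 1.44 in LT-HSC. The groups were far apart and each was nearly level between days (4.32 ± 0.278, limma adjusted p = 5.49e-04), while ST-HSC 2N and 4N held 2874 and 4277 FPKM, against 102 and 165 in LT-HSC 2N and 4N. The D difference minus the N difference was -0.42 and did not pass (adjusted p = 0.672). Ncf1 and Ncf4, cytosolic subunits of the phagocyte NADPH oxidase, were at 54.4 and 23.7 FPKM and at 69.4 and 25.1 FPKM in ST-HSC, and both were listed at 0 in both LT-HSC libraries (adjusted p = 0.00288 for Ncf1 and 0.00435 for Ncf4). MP 2D and 4D held 16.2 and 7.09 FPKM of Ncf1 and 0 of Ncf4.

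Pglyrp1 (ENSMUSG00000030413), a peptidoglycan recognition protein of granulocytes, was at 171 and 58.1 FPKM in ST-HSC and listed at 0 in LT-HSC and MP at both days of induction (6.66 ± 0.51, limma adjusted p = 9.54e-04). In N culture it was at 110 and 52.3 FPKM in ST-HSC, against 215 and 44.5 in LT-HSC with the higher value in LT-HSC at day 2 and in ST-HSC at day 4. Of 12 tested primary granule genes, 6 were higher in ST-HSC at both days and 0 lower, and in N 9 were higher and 0 lower. Of all genes, 6.51% were higher in D and 3.54% in N. Of 23 phagocyte and Fc receptor genes, 11 were higher in D and 11 in N, with 0 lower in either. Of 15 late granule and calprotectin genes, 0 were higher and 0 lower in D, and in N 1 was higher and 3 lower. The summed FPKM of the 12 primary granule genes was 979 and 844 in ST-HSC 2D and 4D, against 539 and 238 in LT-HSC, and their part in the other differences was not tested.

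Alox5, which makes leukotrienes from arachidonic acid, was at 86.6 and 37.8 FPKM in ST-HSC and listed at 0 in LT-HSC and MP at both days (limma adjusted p = 0.0383). Its partner Alox5ap was at 662 and 650 FPKM in ST-HSC, against 175 and 14.9 in LT-HSC, without passing (adjusted p = 0.165). Ptges2, a prostaglandin E synthase, went the other way, at 10.3 and 16.3 FPKM in ST-HSC against 48.0 and 82.0 in LT-HSC (-2.19 ± 0.395, adjusted p = 0.0344). Ptges2 had the same order in N, 8.70 and 16.1 FPKM in ST-HSC against 48.8 and 42.6 in LT-HSC.

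Among genes known from stem and progenitor cells, Cd34 and Igfbp4 were higher in ST-HSC under induction. Cd34 (ENSMUSG00000016494), a sialomucin of progenitors, was at 220 and 155 FPKM in ST-HSC 2D and 4D, against 9.19 and 0 in LT-HSC 2D and 4D (5.86 ± 0.736, limma adjusted p = 0.00888). In N culture the cell types were close, 596 and 442 FPKM in ST-HSC against 487 and 575 in LT-HSC. Procr (ENSMUSG00000027611), the endothelial protein C receptor used to purify HSC, was at 752 and 391 FPKM in ST-HSC, against 46.7 and 0 in LT-HSC. Its difference of 6.30 ± 1.28 was among the largest and missed the threshold (adjusted p = 0.0527), and ST-HSC 2N and 4N held 27.3 and 0 FPKM. Igfbp4, an IGF-binding protein, was at 808 and 731 FPKM in ST-HSC, against 44.1 and 2.32 in LT-HSC (5.97 ± 0.674, adjusted p = 0.00548), and it was also higher in ST-HSC in N, at 815 and 991 FPKM against 138 and 256.

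Of 38 tested genes of HSC surface and signature, 14 were higher in ST-HSC at both days in D, 1 was lower, and Cd34 and Gpr171 passed limma. Of all genes, 6.51% were higher and 3.53% lower in D, and 1.24% passed limma as higher. In N, 3 of the 38 were higher and 18 lower, against 3.54% and 4.86% of all genes. The medians were 0.88 and 1.14 at 2D and 4D, and -1.19 and -1.46 at 2N and 4N. The only member lower at both days in D was Ndn, an imprinted gene, at 13.3 and 2.15 FPKM in ST-HSC against 78.9 and 83 in LT-HSC (adjusted p = 0.114). For single members the change between D and N passed limma for Gpr171, an orphan receptor, and Vwf, the platelet adhesion protein. Vwf was listed at 0 in the 4 D libraries and at 0 in ST-HSC 2N and 4N, against 97.7 and 71.1 FPKM in LT-HSC 2N and 4N. Among the cultured ST-HSC and LT-HSC libraries its values thus differed in N alone. In uncultured cells Vwf was at 0.112 FPKM in ST-HSC, against 166 in LT-HSC. Of 17 megakaryocyte and platelet genes 4 were higher in ST-HSC in D and 0 lower, whereas in N 0 were higher and 10 lower.

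**Figure D4:**
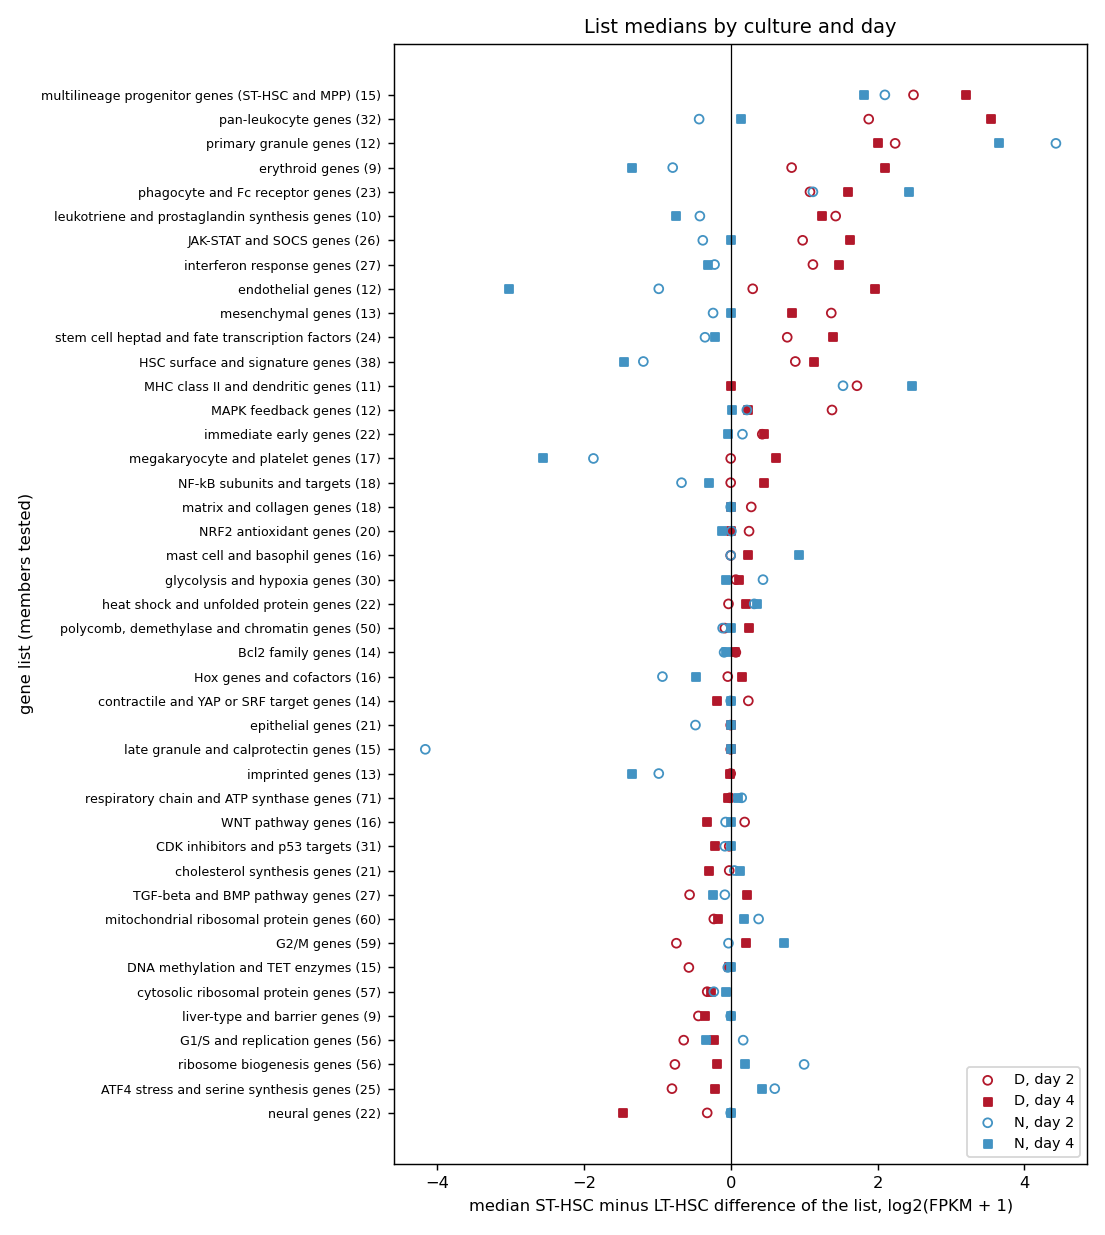
Median ST-HSC minus LT-HSC difference in log2(FPKM + 1) of each gene list (x axis), with the number of members tested beside its name, in D (red) and N (blue) at day 2 (circles) and day 4 (squares). The pan-leukocyte list lies to the right in D (1.88 and 3.55) and near 0 in N (-0.43 and 0.14), and the HSC list lies right of 0 in D and left of 0 in N.

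Of the globin list 2 members were tested, and Hbb-b2 passed. Hbb-b2, an adult beta globin, was at 73.2 and 54.7 FPKM in ST-HSC and listed at 0 in both LT-HSC and both MP libraries (6.01 ± 0.828, limma adjusted p = 0.0129). Hbb-bh0, a globin entry that RefSeq lists as a pseudogene, was at 62.0 and 19.8 FPKM in ST-HSC and listed at 0 in every other cultured stem cell and MP D library (adjusted p = 0.0114). Hbb-y, the embryonic epsilon-type globin, was at 6887 and 3032 FPKM in ST-HSC, against 2707 and 63.1 in LT-HSC. ST-HSC 2D and 4D lay above LT-HSC 2D and 4D, but the difference of 3.46 ± 1.36 did not pass (adjusted p = 0.299). Beta-type globin genes resemble each other, so reads may be split between them. Hba-a1 was listed at 0 in all 4 libraries, and Klf1 in all but LT-HSC 4D, where it was at 1.09 FPKM.

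Genes of cytokine signalling and of extracellular matrix were represented by a few called members, and the counts at both days stand beside 6.51% higher and 3.53% lower of all genes. Of 26 JAK-STAT and SOCS genes, 12 were higher in ST-HSC at both days and 0 lower, with Stat4 at 20.7 and 16.9 FPKM in ST-HSC against 0 and 0 in LT-HSC (limma adjusted p = 0.0129) and Ptpn6, the phosphatase SHP-1 that dampens cytokine receptors, at 124 and 91.1 FPKM against 17.0 and 5.87 (adjusted p = 0.0107). Of 27 interferon response genes, 7 were higher and 0 lower, and Psmb9, an immunoproteasome subunit, was at 103 and 41.5 FPKM in ST-HSC against 12.6 and 0 in LT-HSC (adjusted p = 0.0161). Of 18 matrix and collagen genes, 3 were higher and 2 lower. Col18a1, the basement membrane collagen that yields endostatin, was at 39.6 and 32.8 FPKM in ST-HSC, against 0.470 and 0.270 in LT-HSC (4.76 ± 0.68, adjusted p = 0.0141), and at 2.49 and 0 FPKM in ST-HSC 2N and 4N. Egfl7, a secreted protein of endothelium and stem cells, was at 394 and 705 FPKM in ST-HSC, against 124 and 41.5 in LT-HSC (adjusted p = 0.0315). The endothelial defining genes Cdh5 and Kdr were at 1.95 FPKM or below in all 4 libraries.

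Only 15 genes passed as lower in ST-HSC, and Reg3g (ENSMUSG00000030017), a secreted antibacterial lectin of gut epithelium, led them. Reg3g was listed at 0 in ST-HSC 2D and 4D, against 358 and 510 FPKM in LT-HSC 2D and 4D (-8.74 ± 0.591, limma adjusted p = 5.49e-04). It was listed at 0 in each of the other 11 blood libraries as well. Since 10 of the 12 fitted libraries are at 0, its spread rests on the LT-HSC pair. Tspan6 (ENSMUSG00000067377), a tetraspanin, was at 2.30 and 1.13 FPKM in ST-HSC, against 91.9 and 145 in LT-HSC (-5.45 ± 0.602, adjusted p = 0.00512). The MP libraries lay between, at 15.9 and 28.1 FPKM in 2D and 4D, and LT-HSC 2N and 4N held 15.5 and 7.36.

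Isl1, a homeobox factor of heart and motor neuron development, was at 0 and 0.378 FPKM in ST-HSC, against 20.5 and 22.1 in LT-HSC, and was listed at 0 in MP D and in ST-HSC and LT-HSC N libraries (-4.25 ± 0.634, limma adjusted p = 0.0159). Fermt2, the kindlin of non-blood cells, was at 0 and 1.26 FPKM in ST-HSC, against 14.7 and 28.4 in LT-HSC (-3.83 ± 0.591, adjusted p = 0.0178), and MP 2D and 4D held 13.6 and 48.2. Its blood counterpart Fermt3 had the opposite order. Pcsk6, a proprotein convertase, was at 0 and 3.88 FPKM in ST-HSC, against 23.6 and 37.2 in LT-HSC (adjusted p = 0.0336). Dlg5, a scaffold of cell junctions, was at 0 and 0.464 FPKM in ST-HSC, against 26.8 and 8.23 in LT-HSC (adjusted p = 0.0462).

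Others of the 15 had the same order without induction. Tfpi, the inhibitor of tissue factor, was at 7.38 and 2.30 FPKM in ST-HSC, against 48.5 and 65.4 in LT-HSC (limma adjusted p = 0.0372), with 22.7 and 41.2 FPKM in ST-HSC 2N and 4N against 32.8 and 50.5 in LT-HSC. Evc, a protein of the primary cilium, was at 0 and 8.37 FPKM in ST-HSC, against 24.1 and 52.3 in LT-HSC (adjusted p = 0.0462), with 0 and 0.765 FPKM in ST-HSC N against 15.8 and 22.0 in LT-HSC N. Of the 15, 6 were lower in ST-HSC at both days in N as well, against 4.86% of all genes. Another 5 were listed at 0 in all 4 N libraries of these cells, for which no share over all genes is given.

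Housekeeping lists were set beside the 6.51% higher and 3.53% lower of all genes. Of 71 respiratory chain and ATP synthase genes 0 agreed at both days in either direction, and the same held for 60 mitochondrial ribosomal protein genes and 30 glycolysis genes. Of 56 G1/S and replication genes, 0 were higher and 3 lower in ST-HSC, with medians of -0.64 at day 2 and -0.23 at day 4. Of 59 G2/M genes, 0 were higher and 2 lower, with medians of -0.74 at day 2 and 0.21 at day 4. Of 56 ribosome biogenesis genes, 0 were higher and 2 lower, with medians of -0.76 and -0.19 in D and of 1 and 0.19 in N. Of 57 cytosolic ribosomal protein genes and of 21 cholesterol synthesis genes, 0 were higher and 3 lower in each list. None of these members passed limma. Of 22 neural genes, 1 was higher and 3 lower, and Uchl1, a neuronal deubiquitinase, was at 31.8 and 20.4 FPKM in ST-HSC, against 206 and 144 in LT-HSC (-2.71 ± 0.706, adjusted p = 0.117). Stmn2, a microtubule regulator of neurites, was at 454 and 105 FPKM in ST-HSC, against 714 and 655 in LT-HSC (adjusted p = 0.523).

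N culture gave a different picture of the same cell types. In N, 434 genes (3.54%) were higher in ST-HSC at both days and 595 (4.86%) lower, with 445 (3.63%) of opposite signs, and limma called 17 (0.139%), 14 higher (0.114%) and 3 lower (0.0245%). With a difference of at least 2, 119 (0.971%) were higher, 175 (1.43%) lower and 72 (0.588%) of opposite signs. Of the 798 genes higher in D, 61 were higher in N (7.64% of the D list and 14.06% of the N list) and 84 were lower in N (10.53% and 14.12%). Of the 433 genes lower in D, 16 were higher in N (3.7% and 3.69%) and 46 were lower (10.62% and 7.73%). The D and N differences share no library, and their correlation across 12254 genes lay between -0.038 and 0.001 for the pairings of days.

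**Figure D5:**
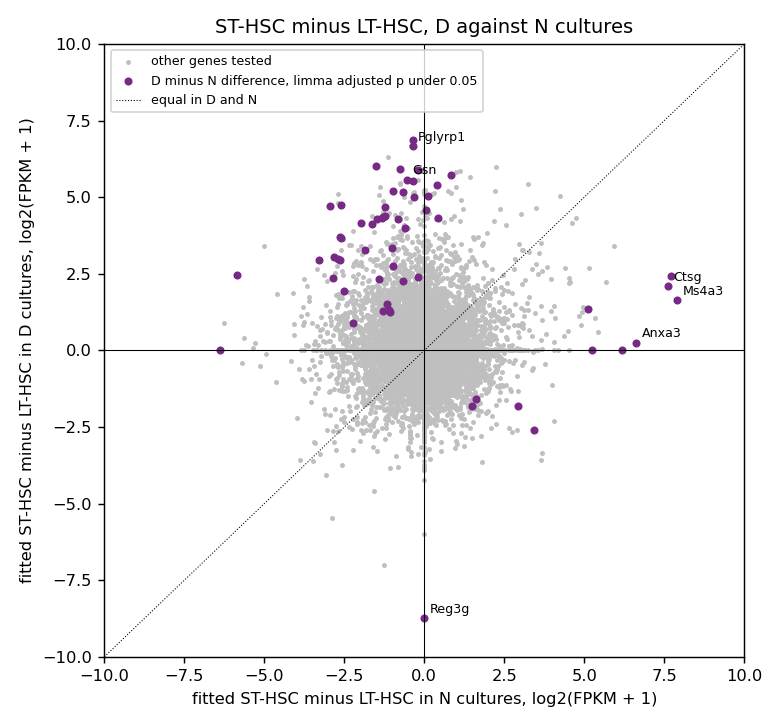
Each point is a gene tested, plotted by its fitted ST-HSC minus LT-HSC difference in N cultures (x axis) and D cultures (y axis) in log2(FPKM + 1). Purple points are the 59 genes whose D and N differences differed by limma: Pglyrp1 and Gsn lie high in D and near 0 in N, Ctsg, Ms4a3 and Anxa3 lie far right in N, and Reg3g lies lowest in D and at 0 in N.

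The difference between the D and N comparisons was itself tested, and 59 genes passed limma (0.481%), 47 with a more positive difference in D (0.384%) and 12 with a more negative one (0.0979%), with 1810 at an unadjusted p under 0.05. This count was 0 when any of ST-HSC 2N, ST-HSC 4N, LT-HSC 2N or LT-HSC 4N was left out and 0 without the MP libraries, so single genes are given as values of the full fit. Neurl3, a ubiquitin ligase, was at 83.6 and 64.5 FPKM in ST-HSC 2D and 4D, against 0.5 and 0 in LT-HSC, while ST-HSC 2N and 4N were at 68.8 and 44.4, against 99.4 and 90.8 in LT-HSC 2N and 4N. Its difference was 6.70 log2 units larger in D (adjusted p = 0.0204). Gsn was 6.11 larger, Pglyrp1 7.02, Acap1, a GTPase-activating protein for ARF6, 5.83, Lsp1 6.20 and Lcp2 5.64 (adjusted p = 0.0204 for each).

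Of 12 primary granule genes, 3 had a more negative difference in D than in N, while the other 9 and all 15 late granule genes did not pass. Ctsg, the neutrophil protease cathepsin G, was at 6.43 and 1.45 FPKM in ST-HSC 2D and 4D and listed at 0 in LT-HSC, while ST-HSC 2N and 4N held 395 and 613 FPKM, against 1.5 and 1.49 in LT-HSC N (change of -5.53, limma adjusted p = 0.0204). Ms4a3, a membrane protein of granulocyte-monocyte progenitors, was at 4.17 and 0.873 FPKM in ST-HSC D, against 0 and 0 in LT-HSC D, and at 183 and 313 FPKM in ST-HSC N, against 0 and 0 in LT-HSC N (-6.27, adjusted p = 0.0204). Mpo, myeloperoxidase, was at 45.1 and 8.45 FPKM in ST-HSC D, against 9.67 and 0.390 in LT-HSC D, and at 2109 and 4315 FPKM in ST-HSC N, against 16.8 and 10.8 in LT-HSC N (-5.26, adjusted p = 0.0472). For these genes the large gap between ST-HSC and LT-HSC was in N culture and was smaller under induction.

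A further selection was made on the MP libraries, among the genes tested, whose filter on mean FPKM includes the ST-HSC and LT-HSC libraries. Of 556 genes at least 4-fold lower in MP D than in MP N at both days, on log2(FPKM + 1), 188 (33.8%) were higher in ST-HSC than in LT-HSC at both days of induction and 7 (1.3%) were lower, and 74 passed limma as higher and 1 as lower. Over all genes tested, 6.5% were higher and 3.5% lower at both days, and 1.24% passed limma as higher and 0.122% as lower. The median ST-HSC minus LT-HSC difference of the 556 was 0.71 and 1.26 at 2D and 4D, and 0.12 and 0.51 at 2N and 4N. Their median level was 2.65 and 2.15 in ST-HSC 2D and 4D, against 1.20 and 0 in LT-HSC 2D and 4D, and 3.81 and 4.14 in ST-HSC 2N and 4N, against 3.46 and 3.13 in LT-HSC 2N and 4N. Of 429 genes at least 4-fold higher in MP D than in MP N, 20 (4.7%) were higher in ST-HSC and 49 (11.4%) lower. The MP libraries also enter the fit as a source of spread, so the limma counts in these sets are not independent of them, and the selection was added after the data were seen.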

How the data were processed

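The authors deposited 1 table with a value per gene and library, taken as FPKM. Per the submitters' processing notes the tools were TopHat and Cufflinks and the genome build was mm9. Their versions, the annotation and strand use were not given in the sources used here, and the unit was read from the values. Low FPKM values were not whole multiples of a common step (2.07% of 193 low genes shared the commonest ratio), so reads could not be recovered, depth is unknown and no interval or detection limit is given. The 158 symbols on several of the 36818 entries were summed.

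Values were taken as log2(FPKM + 1), so a log2 difference of a gene near 0 depends on the added 1. The 12254 genes whose mean over the 12 cultured blood libraries reached FPKM 1 were fitted with limma 3.58.1 in R 4.3.3 (trend and robust empirical Bayes, two-sided, Benjamini-Hochberg over all genes, threshold 0.05), with condition as block, cell type terms within D and within N, and 4 residual degrees of freedom. The code was tested on simulated data. Tables and figures used Python 3.11.15, pandas 2.3.3, numpy 2.4.6 and matplotlib 3.10.9. The members, the 49 lists (1453 entries, 18 of them not found), the tests and the motifs were chosen with earlier results of these data known, so no list was tested as a set.

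Named genes were, each way, the 15 with the largest smaller-of-both-days difference among those with FPKM of at least 10 in the higher cell type at both days, the reprogramming factors, up to 4 members of each list described, up to 10 limma calls by size, and the 5 with the smallest p in the difference between D and N. Other genes named, such as Rac2, Vav1, Lcp2, Fermt3, Tmsb4x, Coro1a, Cd47, Lyl1, Cd37, Ptpn7, Arhgap15, Tal1, Gata2, Hbb-bh0, Traf3ip3, Mpo and Vwf, were chosen after their values were seen. The just-inside and just-outside genes of the agreement rule were Itm2b and Ostf1 higher in ST-HSC, whose smaller differences were 1.000 and 0.999, and Slc22a21 and Cyp4v3 lower, both at -1.000 after rounding. Alternatives changed the added value, the filter, the scaling, the libraries fitted and the size of difference.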

Additional observations from a re-analysis of the deposited data

Results flagged for a closer look

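For 26 of the genes named, the ST-HSC minus LT-HSC difference in D differed from that in N by limma's test of the difference itself (adjusted p of 0.0496 or less), on the 12-library fit. The D difference minus the N difference was, in log2 units, larger in D by 7.52 for Hbb-b2, 7.37 for Col18a1, 7.22 for Ptprcap, 7.02 for Pglyrp1, 6.70 for Neurl3, 6.40 for Vwf, 6.20 for Lsp1, 6.11 for Gsn and 6.08 for Susd3. It was 5.83 for Acap1, 5.77 for Stat4, 5.64 for Lcp2, 5.31 for Gpr171, 4.86 for 1190002H23Rik, 4.53 for Rasgrp2, 4.46 for Nqo1, 4.36 for Fermt3, 3.89 for Traf3ip3, 3.71 for Hdac5 and 2.94 for Nfkb1. It was negative for Reg3g (-8.74), Anxa3 (-6.39), Ms4a3 (-6.27), Ctsg (-5.53), Mpo (-5.26) and Gm5809 (-3.32).

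These calls fall into separate patterns of levels. Hbb-b2, Ptprcap, Pglyrp1, Neurl3, Lsp1, Gsn, Susd3, Acap1 and Lcp2 passed as higher in ST-HSC in D and did not pass in N. Vwf, Nqo1, Anxa3, Ms4a3, Ctsg and Mpo did not pass in D. Nqo1, an NRF2 target that detoxifies quinones, was at 209 and 57.8 FPKM in ST-HSC 2D and 4D, against 79.8 and 9.28 in LT-HSC, and at 23.1 and 13.2 FPKM in ST-HSC 2N and 4N, against 118 and 92.6 in LT-HSC. Gm5809 was at 38.3 and 53.6 FPKM in ST-HSC D, against 126 and 210 in LT-HSC D, and at 130 and 130 FPKM in ST-HSC N, against 41.9 and 48.8 in LT-HSC N. All 26 calls are lost when any of the 4 ST-HSC or LT-HSC N libraries is left out, and no explanation was tested.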

How the results depend on the processing

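The fits compared cell types within each condition, so ST-HSC and LT-HSC were matched by day. Beyond this block, no paired analysis was possible because each condition had 1 library and the labels give no replicate numbers. The 167 genes called in D became 83 with 0.1 added before the log, 103 without the filter, 54 without the 4 MP libraries, 89 without trend and robust estimation, 8 with the 4 compared libraries only, 0 for the day 2 pair and 9 for the day 4 pair. Fewer residual degrees of freedom were left in the fit without MP (2) and in the last 3 (1, 2 and 2). The cause of the changes was not tested otherwise. The 17 called in N became 11 with 0.1 added, 53 with 5 added and 6 without MP. The 59 whose differences differed became 13 with 0.1 added, 95 with 5 added, 1 without the filter, 0 without MP and 21 without trend and robust estimation. With 5 added, 556 genes agreed in D and 464 in N, and at a difference of 2, 346 and 294. Quantile normalization gave 708 higher and 572 lower in D.

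Leaving out 1 library at a time (chosen after seeing the data, with a lone library assumed to vary like the others) gave 20 to 142 calls in D, 4 to 21 in N and 0 to 70 for the difference. In D the count was 20 without ST-HSC 4D, 24 without LT-HSC 4D, 54 without ST-HSC 2N, 56 without ST-HSC 4N, 76 without LT-HSC 2D, 77 without MP 2N, 82 without MP 4N and 91 without LT-HSC 2N or LT-HSC 4N. In N it was 4 without LT-HSC 4N, 9 without ST-HSC 2N or ST-HSC 4N and 10 without LT-HSC 2N. For the difference it was 0 without any of ST-HSC 2N, ST-HSC 4N, LT-HSC 2N or LT-HSC 4N, 3 without MP 2N, 7 without ST-HSC 4D, 10 without LT-HSC 4D, 28 without MP 2D, 29 without MP 4D, 32 without MP 4N and 38 without LT-HSC 2D. Each fit that left out 1 library also had fewer residual degrees of freedom than the full fit. No named gene that passed in either of the fits compared changed direction.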

Other observations

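Another 3 called genes came from lists not described above. S100a4, a calcium-binding protein of motile cells, was at 1360 and 811 FPKM in ST-HSC 2D and 4D, against 151 and 4.89 in LT-HSC 2D and 4D (5.14 ± 0.837 log2 units, limma adjusted p = 0.0227). Nfkb1, the p105 and p50 subunit of NF-kB, was at 134 and 157 FPKM in ST-HSC, against 40.4 and 20.9 in LT-HSC (2.28 ± 0.329, adjusted p = 0.0149). Hdac5, a class IIa histone deacetylase, was at 230 and 70.4 FPKM in ST-HSC, against 34.8 and 9.26 in LT-HSC (2.74 ± 0.435, adjusted p = 0.0201), while MP 2D and 4D held 176 and 155 FPKM. Nfkb1 and Hdac5 were thus lower in LT-HSC at both days, and the MP libraries stood with LT-HSC for Nfkb1 (35.0 and 27.7 FPKM) and with ST-HSC for Hdac5. Of 13 imprinted genes tested, 2 were higher in ST-HSC at both days and 1 lower, beside 6.51% and 3.53% of all genes. Grb10, an imprinted adaptor that restrains insulin signalling, was at 37.8 and 11.2 FPKM in ST-HSC, against 68.8 and 95.8 in LT-HSC, without passing (adjusted p = 0.221).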
